A study of Mus musculus with 20 samples.

Results

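The 9 genes described here are the platelet-derived growth factor (PDGF) ligands Pdgfa, Pdgfb, Pdgfc and Pdgfd, the receptor Pdgfrb, the receptor-like gene Pdgfrl, and the pericyte genes Cspg4, Rgs5 and Notch3. They were chosen by name and matched to the Ensembl identifiers of the deposited gene count table, where each had 1 entry among 63318. Poly(A) RNA of mouse heart was sequenced in 4 groups of 4 short-read libraries, and the title of the series names alternative splicing after infarction as its subject. In the myocardial infarction group (MI), hearts were taken 72 h after surgery, and the tissue held the infarct core with its surroundings. The ischemia-reperfusion group (IR) had 40 min of a step that the labels call "LCA" without explaining it, then 72 h of reperfusion, in which blood flow returned, and its tissue came from the core. Each injury had its own sham-operated group (MISham and IRSham) with tissue from the same region as the injured hearts, so the type of injury and the sampled region are confounded and cannot be told apart. A time is listed for the injured hearts and not for the shams. The labels give no strain, genotype, sex or age, nor whether different libraries came from different animals. The p-values therefore measure only the spread among libraries, which may be technical.

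Pericytes and vascular smooth muscle cells, together called mural cells, wrap the endothelial tube of small and larger vessels. PDGF-B made by endothelium binds PDGF receptor beta on mural cells and keeps them on the vessel, while PDGF-A and PDGF-C signal mainly through receptor alpha on fibroblasts. PDGF-C and PDGF-D are secreted in a latent form and are activated when proteases cut off an N-terminal domain, and Notch3 is the Notch receptor of mural cells.

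Library totals were 57.2 to 63.1 M counts in MI, 24.3 to 27.6 in MISham, 26.2 to 31.8 in IR and 25.5 to 29.8 in IRSham, so depth moved with the MI group. Mitochondrially encoded mRNAs took 1.88 to 2.82% of counts in MI and 1.93 to 3.26% in IR, against 7.45 to 8.40% in MISham and 6.74 to 7.21% in IRSham. On the first principal component, which held 55.1% of the variance, libraries 1 and 3 of MISham lay at 71.0 and 66.8 and libraries 2 and 4 at 113 and 106, and IR split between the same numbers, at -48.5 and -54.2 for libraries 1 and 3 against -94.7 and -91.45 for libraries 2 and 4. On the second component, which held 16.95% of the variance, the MI and MISham libraries lay at -48.2 to -36.6. The IR and IRSham libraries lay at 29.5 to 56.1, apart from them. The labels name no batch. All 12 cardiomyocyte markers fell after MI and after IR, and their summed level was 18192 to 32401 CPM (counts scaled per M reads of the library) in MI and 19574 to 38769 in IR, against 96704 to 113100 in MISham and 101080 to 107310 in IRSham. None of them was at 0 in any library. The part of this loss in the values below was not tested. In bulk tissue, fewer cells of a type and less RNA per cell cannot be told apart.

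After MI, 7 of the 9 genes rose and 2, Rgs5 and Pdgfd, fell. Calls rest on edgeR's quasi-likelihood test at an adjusted p of 0.05, corrected by Benjamini and Hochberg's method over all 19741 genes tested. All 9 genes passed the filter on low counts. The background was high: 64.9% of all genes tested were called after MI, 34.8% higher and 30.2% lower. Where groups are said below not to overlap, the share of all genes tested that also lie apart was not counted. After IR, 6 of the 9 rose, the same 2 fell and Pdgfa was not called, beside a background of 57.7% of all genes, 29.5% higher and 28.2% lower. The median log2 fold change of the 9 genes was 0.56 after MI and 0.49 after IR, where that of all genes tested was 0.08 and 0.03. The 9 genes were chosen with earlier results of these data known, so their counts and medians beside the background are descriptions only. The direction of calls depended on the scaling: of all genes called, 53.5% were higher after MI and 51.1% after IR, against 68.6% and 69.1% when scaled by total counts alone and 83.8% and 83.9% on gene-summed TPM. CPM values are scaled by trimmed mean (TMM) factors, and each group mean is of n = 4 libraries with its SD.

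**Figure D1:**
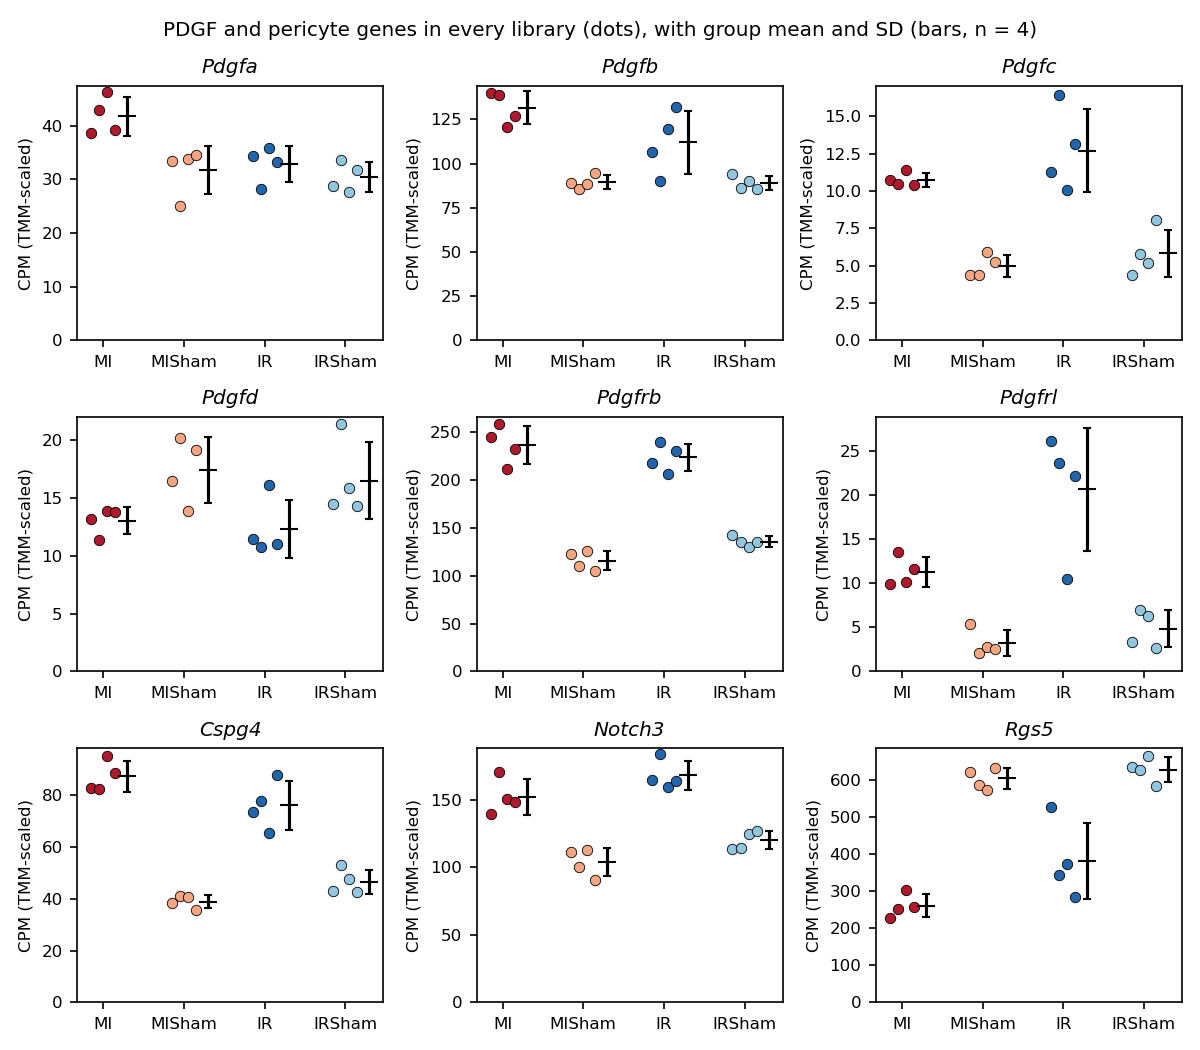
CPM (TMM-scaled, y axes starting at 0) of the 9 genes in each of the 16 libraries, drawn as dots in replicate order from left to right within a group, with the group mean and SD as a bar (n = 4). The MI libraries lie apart from the MISham libraries in all 9 panels, below them for Rgs5 and Pdgfd and above them for the other genes. After MI 64.9% of all genes tested were called, and the share of all genes whose groups lie apart was not counted.

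The ligands did not move together. Pdgfb, the ligand that endothelium supplies to mural cells, stood at 140, 139, 121 and 127 CPM in the MI libraries and at 89.2, 85.5, 88.5 and 94.7 in the MISham libraries. All MI libraries were above all MISham libraries, and the log2 fold change was 0.56 ± 0.09 (SE, adjusted p = 3.98e-05, edgeR). In IR it stood at 107, 90.1, 120 and 132 CPM, and in IRSham at 94.3, 86.2, 90.2 and 85.7. Here the groups overlapped, because IR library 2 was below IRSham libraries 1 and 3, and the rise of 0.33 ± 0.09 on the log2 scale passed the test (adjusted p = 0.00505, edgeR).

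Pdgfc, the latent ligand of receptor alpha, was higher in both injuries, by 2.16-fold after MI and 2.18-fold after IR. It was at 10.8, 10.5, 11.4 and 10.4 CPM in MI and at 4.41, 4.36, 5.91 and 5.22 in MISham. In IR it was at 11.2, 16.4, 10.0 and 13.1 CPM, and in IRSham at 4.38, 5.77, 5.20 and 8.05. No injured library was as low as any sham library of its kind, and the log2 fold changes were 1.11 ± 0.18 after MI (adjusted p = 3.74e-05, edgeR) and 1.12 ± 0.18 after IR (adjusted p = 4.52e-05).

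Pdgfd, the latent ligand of receptor beta, was lower in both injuries, at 0.748 of the sham level in each. The MI libraries held 13.1, 11.4, 13.8 and 13.8 CPM and the MISham libraries 16.5, 20.2, 13.9 and 19.1. The highest MI value, 13.81, lay just under the lowest MISham value, 13.86. In IR the values were 11.5, 10.8, 16.1 and 11.0 CPM and in IRSham 14.5, 21.4, 15.8 and 14.3, and IR library 3 was above 3 of the 4 sham libraries. The log2 fold change was -0.42 ± 0.16 in both comparisons (adjusted p = 0.027 after MI and 0.0319 after IR, edgeR). The call was lost with libraries scaled by total counts alone, where the values were -0.11 and -0.13, and on gene-summed TPM the direction turned to 0.29 and 0.11, against medians over all genes of 0.70 and 0.57 on that scale. Leaving out MISham library 2 gave -0.34 (adjusted p = 0.0923), MISham library 4 -0.37 (0.0741) and MI library 2 -0.36 (0.0834), each short of the threshold. After IR the call was also lost without IR library 1 (-0.39, adjusted p = 0.0684), IR library 2 (-0.36, 0.0916), IR library 4 (-0.37, 0.0881) or IRSham library 2 (-0.27, 0.151).

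Pdgfa, which encodes the A chain that binds receptor alpha, was at 38.6, 42.9, 46.3 and 39.2 CPM in MI and at 33.4, 25.1, 33.9 and 34.6 in MISham. These groups did not overlap, and Pdgfa rose by 0.40 ± 0.11 on the log2 scale (adjusted p = 0.00313, edgeR). In IR it was at 34.4, 28.2, 35.8 and 33.3 CPM and in IRSham at 28.8, 33.7, 27.7 and 31.7, which overlapped. The log2 fold change after IR was 0.11 (95% CI -0.11 to 0.33, adjusted p = 0.388, edgeR). Scaled by total counts alone, the IR value was 0.40 and passed the test (adjusted p = 0.00314), and on gene-summed TPM it was 0.64 (adjusted p = 9.17e-05). The noncoding gene 6330403L08Rik overlaps Pdgfa on the opposite strand and held 545 to 1552 counts. It fell by 0.81 ± 0.13 after MI (adjusted p = 1.97e-05, edgeR) and by 0.85 ± 0.13 after IR (1.79e-05), and since the sources used here do not give the strand setting of the counting, reads of the 2 genes cannot be told apart.

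Levels were compared between ligands as TPM summed over each gene's annotated transcripts, which is per length. The summed TPM of the 4 ligands was 94.9 ± 8.32 (SD, n = 4) in MI and 42.6 ± 2.33 in MISham, and 82.8 ± 8.97 in IR and 45.8 ± 3.87 in IRSham. Unlike the shares below, these sums depend on the scaling between libraries. Medians over all genes lay at 0.70 after MI and 0.57 after IR (log2) on gene-summed TPM. The higher sums therefore cannot be read as a rise of the ligands alone. Pdgfb held the largest share in each of the 16 libraries, from 48.8 to 62.9%, followed by Pdgfa with 25.8 to 38.3%. Pdgfd held 5.18 to 6.87% in MI and 9.08 to 13.7% in MISham, with no overlap, and 5.23 to 8.02% in IR against 8.57 to 12.0% in IRSham, again with none. Pdgfc took 4.22 to 4.77% in MI against 2.38 to 3.35% in MISham, and 4.50 to 10.3% in IR against 2.42 to 4.30% in IRSham. These shares are free of the scaling between libraries and were given no test.

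**Figure D2:**
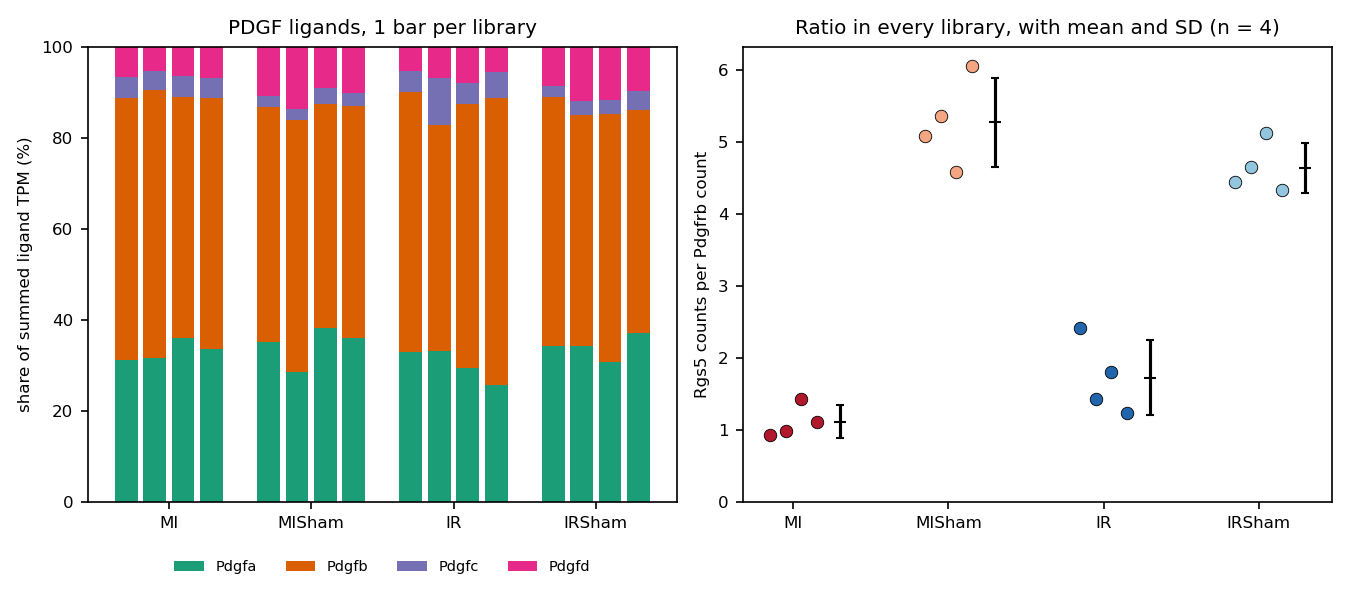
Left, share of each PDGF ligand in the summed ligand TPM (%), 1 bar per library. Right, counts of Rgs5 per count of Pdgfrb in every library (dots) with the group mean and SD (n = 4). Pdgfb is the largest share in each bar, and the ratio lies under 2.5 in the 8 injured libraries and above 4 in the 8 sham libraries.

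The receptor Pdgfrb, a tyrosine kinase of mural cells and fibroblasts, rose after both injuries. It was at 245, 258, 212 and 233 CPM in MI and at 122, 110, 125 and 105 in MISham. The IR libraries held 218, 240, 207 and 230 CPM and the IRSham libraries 143, 135, 130 and 135. Every injured library was above every sham library, and the log2 fold changes were 1.04 ± 0.08 after MI (adjusted p = 8.03e-09, edgeR) and 0.72 ± 0.08 after IR (5.85e-07). Pdgfra, the receptor of PDGF-A and PDGF-C and a fibroblast marker, rose by 0.48 ± 0.14 after MI (adjusted p = 0.00685, edgeR) and by 0.59 ± 0.14 after IR (0.00185).

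Pdgfrl, whose protein resembles the extracellular part of the PDGF receptors and has no kinase domain, had the largest fold change of the 9 genes in both comparisons and the widest error. It was at 9.91, 13.5, 10.1 and 11.6 CPM in MI and at 5.37, 2.11, 2.72 and 2.57 in MISham. In IR it was at 26.1, 23.7, 10.5 and 22.2 CPM and in IRSham at 3.37, 7.00, 6.28 and 2.70. IR library 3, at 10.5 CPM, was the lowest of its group and was above all sham libraries. The log2 fold changes were 1.81 ± 0.35 after MI (adjusted p = 0.000314, edgeR) and 2.09 ± 0.35 after IR (9.27e-05). Counts of Pdgfrl ran from 47 to 965, and the 47 was the lowest count of any of the 9 genes.

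Cspg4, the NG2 proteoglycan of pericyte surfaces, was at 82.8, 82.4, 95.3 and 88.5 CPM in MI and at 38.5, 40.9, 40.7 and 35.6 in MISham. In IR it was at 73.3, 77.9, 65.3 and 87.7 CPM and in IRSham at 43.0, 52.9, 47.5 and 42.7. The groups did not overlap, and Cspg4 rose by 1.16 ± 0.09 after MI (adjusted p = 1.2e-08, edgeR) and by 0.71 ± 0.09 after IR (3.78e-06). The ratio of the 2 genes overlapped between all groups: there were 0.319 to 0.450 Cspg4 counts per Pdgfrb count in MI, 0.315 to 0.373 in MISham, 0.316 to 0.381 in IR and 0.301 to 0.392 in IRSham.

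Notch3 also rose after both injuries. It was at 139, 171, 151 and 149 CPM in MI and at 111, 100, 113 and 90.3 in MISham. The IR libraries held 165, 183, 160 and 164 CPM and the IRSham libraries 114, 114, 124 and 127. No library overlapped with the other group, and the log2 fold changes were 0.55 ± 0.08 after MI (adjusted p = 1.09e-05, edgeR) and 0.49 ± 0.08 after IR (5.91e-05). Gm17276, which overlaps Notch3 on the opposite strand, held 23 to 94 counts, against 1936 to 12172 for Notch3. It fell by 2.02 ± 0.30 after MI (adjusted p = 1.2e-05, edgeR) and by 1.78 ± 0.30 after IR (7.87e-05).

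Rgs5, a GTPase-activating protein for G protein alpha subunits and among the most used transcript markers of pericytes, went the other way. Per length it was the highest of the 9 genes in each sham library, at 89.7 to 100.2 summed TPM in MISham and 92.5 to 111.8 in IRSham. It was at 623, 588, 575 and 634 CPM in MISham and 636, 627, 665 and 585 in IRSham. In MI it was at 229, 253, 303 and 258 CPM, and in IR at 527, 343, 374 and 285. Every injured library was below every sham library, and IR library 1 was the nearest to them. Rgs5 fell by 1.21 ± 0.14 on the log2 scale after MI (adjusted p = 7.53e-07, edgeR) and by 0.72 ± 0.14 after IR (adjusted p = 0.000271). On gene-summed TPM the IR value was -0.11 and was not called (adjusted p = 0.388), against a median over all genes of 0.57. The ratio of Rgs5 to Pdgfrb counts, which no scaling touches, was 0.936 to 1.43 in MI and 4.58 to 6.06 in MISham, and 1.24 to 2.42 in IR and 4.33 to 5.12 in IRSham. Pdgfb and Notch3 were also lower against Pdgfrb, by less. Per Pdgfrb count, Pdgfb stood at 0.539 to 0.571 in MI and 0.706 to 0.905 in MISham. In IR it stood at 0.376 to 0.578, against 0.634 to 0.694 in IRSham. Notch3 stood at 0.567 to 0.711 in MI and 0.863 to 0.915 in MISham. In IR it stood at 0.713 to 0.772, against 0.795 to 0.958 in IRSham.

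**Figure D3:**
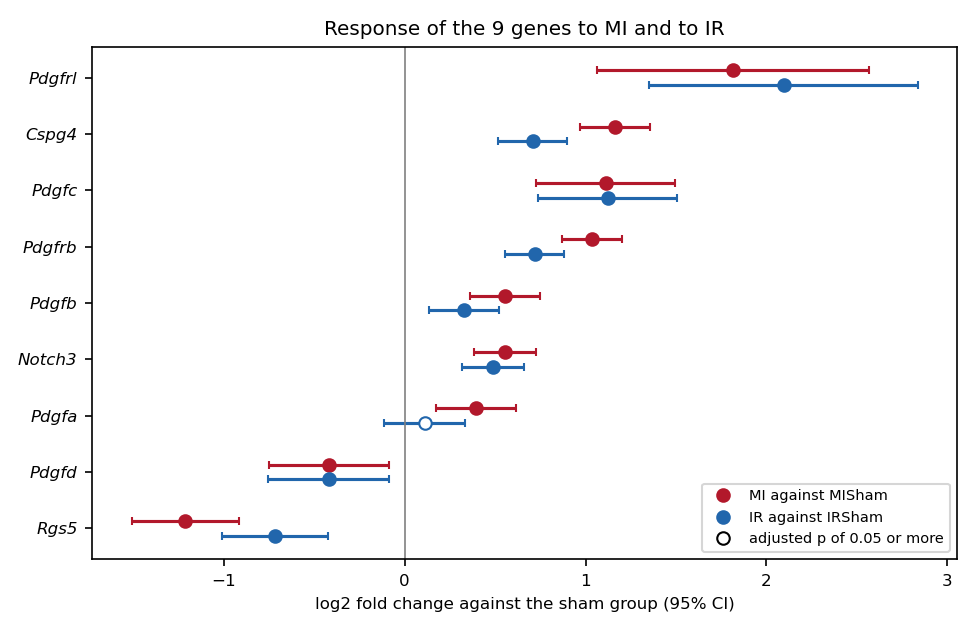
Log2 fold change (x axis) of the 9 genes in MI against MISham (red) and IR against IRSham (blue), with 95% confidence intervals from the edgeR fit. Filled dots passed an adjusted p of 0.05. Rgs5 and Pdgfd lie left of 0 in both comparisons, and the open dot is Pdgfa after IR at 0.11.

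The 250 bases before the transcription start are shown for Cspg4 and Notch3, which rose, and for Rgs5, which fell, as the promoters of mural genes that moved in opposite directions. They are RefSeq sequences on GRCm38.p6, read 5′ to 3′ on the gene's strand, and the deposited files use GRCm39, so the coordinates belong to the sequences alone. Capitals mark matches of GGGCGG, the core of the GC box, on either strand. TATAAA and TGACTCA, the TATA box and the AP-1 site, were also searched on both strands and had no match in these windows.
Cspg4, chr9:56864854-56865103, plus strand: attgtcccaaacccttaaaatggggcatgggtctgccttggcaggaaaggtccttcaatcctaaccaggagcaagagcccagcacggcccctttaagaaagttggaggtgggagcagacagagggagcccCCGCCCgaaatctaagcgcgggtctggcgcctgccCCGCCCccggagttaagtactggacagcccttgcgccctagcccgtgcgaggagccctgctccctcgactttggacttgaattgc
Notch3, chr17:32166891-32167140, minus strand: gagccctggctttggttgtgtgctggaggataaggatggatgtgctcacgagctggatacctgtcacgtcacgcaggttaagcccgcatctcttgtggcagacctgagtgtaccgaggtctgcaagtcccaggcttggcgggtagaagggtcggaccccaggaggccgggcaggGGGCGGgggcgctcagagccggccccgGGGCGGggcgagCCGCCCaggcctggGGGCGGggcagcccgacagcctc
Rgs5, chr1:169655251-169655500, plus strand: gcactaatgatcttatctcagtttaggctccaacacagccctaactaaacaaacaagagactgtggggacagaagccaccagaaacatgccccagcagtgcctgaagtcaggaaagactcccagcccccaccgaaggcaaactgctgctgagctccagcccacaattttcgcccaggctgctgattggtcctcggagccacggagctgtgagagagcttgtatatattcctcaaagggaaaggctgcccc
Notch3 held 4 matches of GGGCGG, Cspg4 2 and Rgs5 0, and their GC content was 68.8%, 60.4% and 53.6%. Over all 32851 promoter windows of this length, 32.7% held GGGCGG, 12.4% TATAAA and 4.46% TGACTCA. Among the 9 genes, 6 had an entry in the promoter table, and of the others shown there Pdgfa held the motif in both of its windows while Pdgfc and Pdgfd did not. These matches describe the letters only.

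The responses to MI and to IR were compared by the test of their difference. None of the 9 genes was called, beside a background of 0.192% of all genes. At an unadjusted p under 0.05 there were 3, Cspg4, Pdgfrb and Rgs5, and DESeq2 also called 0. The difference was 0.46 for Cspg4 (95% CI 0.19 to 0.72, adjusted p = 0.123, edgeR), 0.32 for Pdgfrb (0.09 to 0.55, adjusted p = 0.192) and -0.50 for Rgs5 (-0.91 to -0.08, adjusted p = 0.251). For Pdgfc it was -0.01, with an interval of -0.55 to 0.53. With IR libraries 1 and 3 alone for IR, Rgs5 (-0.77, adjusted p = 0.0175, edgeR) and Cspg4 (0.55, adjusted p = 0.0268) were called. With libraries 2 and 4 alone for MISham, Pdgfrb was called (0.43, adjusted p = 0.0457, edgeR). All genes called went from 38 to 758 and 1096 in these fits. With IR libraries 2 and 4 or MISham libraries 1 and 3 alone, none of the 9 was called. The pairs were added after seeing the data and follow the split on the first principal component, so these calls are descriptions only.

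Between the sham groups, MISham against IRSham, none of the 9 genes was called either, beside a background of 3.2% of all genes. There were 3 at an unadjusted p under 0.05, and DESeq2 called 0. These 3 were Pdgfrb at -0.23 ± 0.08, Cspg4 at -0.26 ± 0.09 and Notch3 at -0.21 ± 0.08, with adjusted p of 0.142, 0.18 and 0.233 in edgeR, and for each of them every MISham library lay below every IRSham library. With MISham libraries 2 and 4 alone, a pair added after seeing the data, Pdgfrb (-0.34, adjusted p = 0.0312, edgeR) and Notch3 (-0.33, adjusted p = 0.0418) were called. All genes called then went from 632 to 1674, and with MISham libraries 1 and 3 alone none of the 9 was called.

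The transcript table gave 30 annotated transcripts for the 9 genes, of which 17 had a mean TPM of at least 1 and were tested with limma on log2(TPM + 1), with the correction over 40489 transcripts. After MI 11 rose and 1 fell, beside a background of 49.0% of transcripts higher and 10.1% lower, and after IR 9 rose and 0 fell, beside 42.5% higher and 9.23% lower. On this scale the median of all transcripts was 0.60 after MI and 0.48 after IR. Pdgfrb-201 rose by 1.71 ± 0.15 after MI (SE, adjusted p = 3.82e-07, limma) and 1.20 ± 0.15 after IR (1.65e-05), and the main coding transcript of Cspg4 by 1.54 ± 0.13 (2.69e-07) and 1.02 ± 0.13 (1.96e-05). The main coding transcript of Rgs5, which held at least 98.7% of Rgs5 TPM in all libraries, was the 1 transcript that fell after MI, at -0.49 ± 0.12 (adjusted p = 0.00251, limma), and after IR it was at -0.12 ± 0.12 (0.416). The coding transcript of Notch3 rose by 1.25 ± 0.12 after MI (adjusted p = 9.61e-07, limma), and its retained-intron transcript was at 0.01 ± 0.41 (0.99). The share of the coding transcript in Notch3 TPM changed by 15.4 points, which was not called (adjusted p = 0.135, limma). The retained-intron transcripts of Cspg4 and Pdgfb rose after MI, by 1.57 ± 0.18 (adjusted p = 4.09e-06, limma) and 1.06 ± 0.19 (0.000198). None of the 17 was called between the responses or between the sham groups by limma, with 5 and 4 at an unadjusted p under 0.05.

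Pdgfa makes 2 kinds of A chain, shown here because both are measured. Pdgfa-201 keeps an exon that encodes a basic C-terminal stretch, known to hold the protein at the cell surface and matrix, and Pdgfa-202 skips it. The lines give the GENCODE M21 coding strand of chromosome 5 (GRCm38, minus strand) from the last 19 shared coding bases, in lower case, to the stop codon, with the bases of each isoform's own end in capitals.
Pdgfa-201: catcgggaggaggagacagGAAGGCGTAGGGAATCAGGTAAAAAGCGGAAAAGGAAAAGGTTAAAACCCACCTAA
Pdgfa-202: catcgggaggaggagacagATGTGAGGTGA
The long form ends in 56 bases of its own and encodes 211 residues, and the short form, which Pdgfa-204 shares, ends in 11 and encodes 196. Pdgfa-201 was at 7.32, 7.76, 3.93 and 5.43 TPM in MI and at 0.394, 0.760, 2.56 and 3.98 in MISham. Pdgfa-202 was at 16.7, 18.3, 21.0 and 16.0 TPM in MI and at 10.7, 6.78, 9.07 and 7.39 in MISham, so the short form was the higher of the pair in each of these libraries. The MI and MISham values of the long form overlapped, and those of the short form did not. After MI the long form rose by 1.43 ± 0.40 (adjusted p = 0.00672, limma) and Pdgfa-202 by 1.01 ± 0.15 (5.35e-05). After IR the long form rose by 1.14 ± 0.40 (adjusted p = 0.0276, limma) and Pdgfa-202 by 0.65 ± 0.15 (0.00264). The long-form values overlapped, at 1.99 to 6.34 TPM in IR and 0.720 to 2.87 in IRSham. Pdgfa-204 rose by 0.50 ± 0.13 after MI (adjusted p = 0.00331, limma) and was at 0.11 ± 0.13 after IR (0.495). The share of the long form in Pdgfa TPM was 19.5 ± 5.59% (SD, n = 4) in MI and 12.3 ± 9.84% in MISham, a change of 7.18 points that was not called (adjusted p = 0.444, limma).

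Shares of gene TPM were tested for 16 transcripts of 6 of the 9 genes, and a change was called at an adjusted p under 0.05 and at least 10 percentage points. After MI 2 were called, beside a background of 5.73%, both of Pdgfrl. Pdgfrl-201 held 96.9 to 98.2% in MI and 74.9 to 96.3% in MISham, a gain of 15.2 points (adjusted p = 0.019, limma), and Pdgfrl-202 lost as much (adjusted p = 0.0155). The gene was at 8.24 to 12.3 summed TPM in MI and 1.25 to 2.94 in MISham, where Pdgfrl-202 was at 0.108 to 0.461 TPM. In IRSham the gene was at 1.59 to 3.66 summed TPM, and Pdgfrl-201 held 89.8 to 98.2%. The mean of 5 summed TPM needed for this test was reached through the injured groups, so the calls set MI against a sham group under that level. After IR no share was called by limma, with 4 at an unadjusted p under 0.05, beside a background of 3.59%. Pdgfd-203, which lacks the 215-base exon of Pdgfd-201 and encodes 261 residues in place of 364, held 27.1 to 44.8% in MI and 23.2 to 64.7% in MISham, and its change of -6.32 ± 7.47 points (SE) was not called (adjusted p = 0.698, limma).

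Beside the list here and those that follow, 34.8% of all genes tested were higher and 30.2% lower after MI, and 29.5% and 28.2% after IR. Around the ligands, the list of receptor partners and ligand-processing genes held 10 genes. Of these, 7 rose and 2 fell after MI and 7 rose and 3 fell after IR. The median log2 fold change of this list was 1.04 and 0.81. Plau, the urokinase that activates PDGF-D, was at 89.9 ± 19.4 CPM (SD, n = 4) in MI and 12.5 ± 3.92 in MISham, and rose by 2.84 ± 0.23 (SE, adjusted p = 4.89e-08, edgeR), and by 1.87 ± 0.22 after IR (3.92e-06). St14, the membrane protease matriptase that can also cut PDGF-D, rose by 2.61 ± 0.34 after MI from a mean of 0.700 CPM (adjusted p = 2.96e-06, edgeR). Plat, the tissue plasminogen activator that activates PDGF-C, rose by 1.45 ± 0.11 after MI (adjusted p = 9.59e-09, edgeR) and by 1.02 ± 0.11 after IR (6.12e-07). The falls were of Slc9a3r2, a scaffold that binds PDGF receptor beta, at -0.62 ± 0.13 (adjusted p = 0.00035, edgeR), and of the coreceptor Nrp1 at -0.23 ± 0.07 (0.00661). Scaled by total counts alone, 7 rose and 1 fell after each injury. On gene-summed TPM, where 8 of the 10 were tested, 7 rose and 0 fell after each.

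Downstream of the receptor, 18 effectors were measured: 6 rose and 7 fell after MI, and 5 rose and 6 fell after IR, with medians of -0.01 and -0.06. This split depended on the scaling, with 11 rising and 4 falling after MI and 9 and 3 after IR when scaled by total counts alone, and 14 and 0 after MI and 13 and 0 after IR on gene-summed TPM. Src, a kinase recruited to the receptor, rose by 1.69 ± 0.17 (adjusted p = 2.2e-07, edgeR) and the adaptor Shc1 by 0.90 ± 0.09 (1.22e-07). Pik3r1, the regulatory subunit of PI3-kinase that binds the receptor, fell by 1.03 ± 0.12 (adjusted p = 8.66e-07, edgeR), and Stat5b, a transcription factor, fell by 0.82 ± 0.06 (1.06e-08). Of 10 genes that attenuate the receptor, 9 rose and 0 fell after MI and 8 rose and 0 fell after IR. With DESeq2 8 rose after each injury. By total counts alone or on gene-summed TPM, 10 rose after MI and 9 after IR. Among them, Ptpn1, a phosphatase that acts on PDGF receptors, rose by 1.29 ± 0.15 after MI (adjusted p = 1.37e-06, edgeR), and Socs3, a cytokine signalling inhibitor, rose by 1.69 ± 0.40 after MI (adjusted p = 0.00196) and was at 0.48 ± 0.39 after IR (0.315).

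Of 17 Notch ligands, receptors and targets, 12 rose and 3 fell after MI, and 9 rose and 3 fell after IR. On gene-summed TPM these counts were 14 and 1 after MI and 11 and 0 after IR. Jag1, a ligand of Notch3 between endothelium and mural cells, rose by 1.31 ± 0.13 after MI (adjusted p = 1.33e-07, edgeR) and 0.75 ± 0.13 after IR (7.62e-05), and Lfng, which adds sugars to Notch receptors, by 1.82 ± 0.27 (3.32e-05) and 1.31 ± 0.27 (0.00069). The targets differed among themselves. Heyl rose by 0.75 ± 0.11 after MI (adjusted p = 9.82e-06, edgeR) and 0.68 ± 0.11 after IR (4.18e-05), whereas Hey2 fell by 1.22 ± 0.19 (1.65e-05) and 0.61 ± 0.19 (0.00945). Hey1 rose by 0.63 ± 0.17 after MI (adjusted p = 0.00316, edgeR) and was at 0.01 ± 0.17 after IR (0.983), and Hes1 was at -0.13 ± 0.18 and -0.22 ± 0.19 (0.552 and 0.321). The ligand Dll4 rose by 0.78 ± 0.26 after MI (adjusted p = 0.015, edgeR) and was at -0.32 ± 0.26 after IR (0.302), and the difference of these responses, 1.10, was not called (adjusted p = 0.184). Jag2, another ligand, fell by 0.62 ± 0.11 after MI (adjusted p = 9.14e-05, edgeR) and by 0.76 ± 0.11 after IR (1.76e-05).

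The 22 other mural markers moved in both directions: 9 rose and 11 fell after MI, and 9 rose and 11 fell after IR, with medians of -0.48 and -0.38. None was at 0 in any library, and their summed level was 1301 to 1393 CPM in MI, 1679 to 1824 in MISham, 1271 to 1477 in IR and 1711 to 1829 in IRSham. Abcc9, which cardiomyocytes also express, carried the lower sums: it was at 109 to 141 CPM in MI, 548 to 685 in MISham, 101 to 195 in IR and 503 to 577 in IRSham. Without it the sum was 1191 to 1273 CPM in MI and 1131 to 1185 in MISham, and 1168 to 1287 in IR and 1197 to 1252 in IRSham, so it was higher in MI than in MISham and overlapped after IR. This sum was added after seeing the data. It kept Mcam, with means of 336 CPM in MI and 76.4 in MISham, and Art3, with 63.7 and 279. Each of these gaps is wider than that between the sums, so the direction of the sum depends on the genes kept. Mcam, an adhesion molecule, had a mean of 336 CPM in MI and 76.4 in MISham and rose by 2.14 ± 0.14 (adjusted p = 4.1e-09, edgeR), and after IR by 1.27 ± 0.14 (8.99e-07). Anpep, an aminopeptidase of pericyte surfaces, rose by 1.76 ± 0.19 after MI (adjusted p = 8.33e-07, edgeR) and 1.94 ± 0.19 after IR (5.56e-07). The potassium channel pair went down with Rgs5. Kcnj8, its pore, fell by 1.23 ± 0.11 after MI (adjusted p = 3.98e-08, edgeR) and 1.26 ± 0.11 after IR (8.72e-08). Abcc9, its regulatory subunit, fell by 2.29 ± 0.20 (5.08e-08) and 1.84 ± 0.19 (7.55e-07). Art3, an ADP-ribosyltransferase family member, fell by 2.13 ± 0.27 after MI (adjusted p = 6.45e-06, edgeR). Scaled by total counts alone, 10 of the mural markers rose and 9 fell after MI, and 9 rose and 8 fell after IR. On gene-summed TPM 10 rose and 7 fell after MI and 10 rose and 4 fell after IR, and the medians turned to 0.28 and 0.15.

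**Figure D4:**
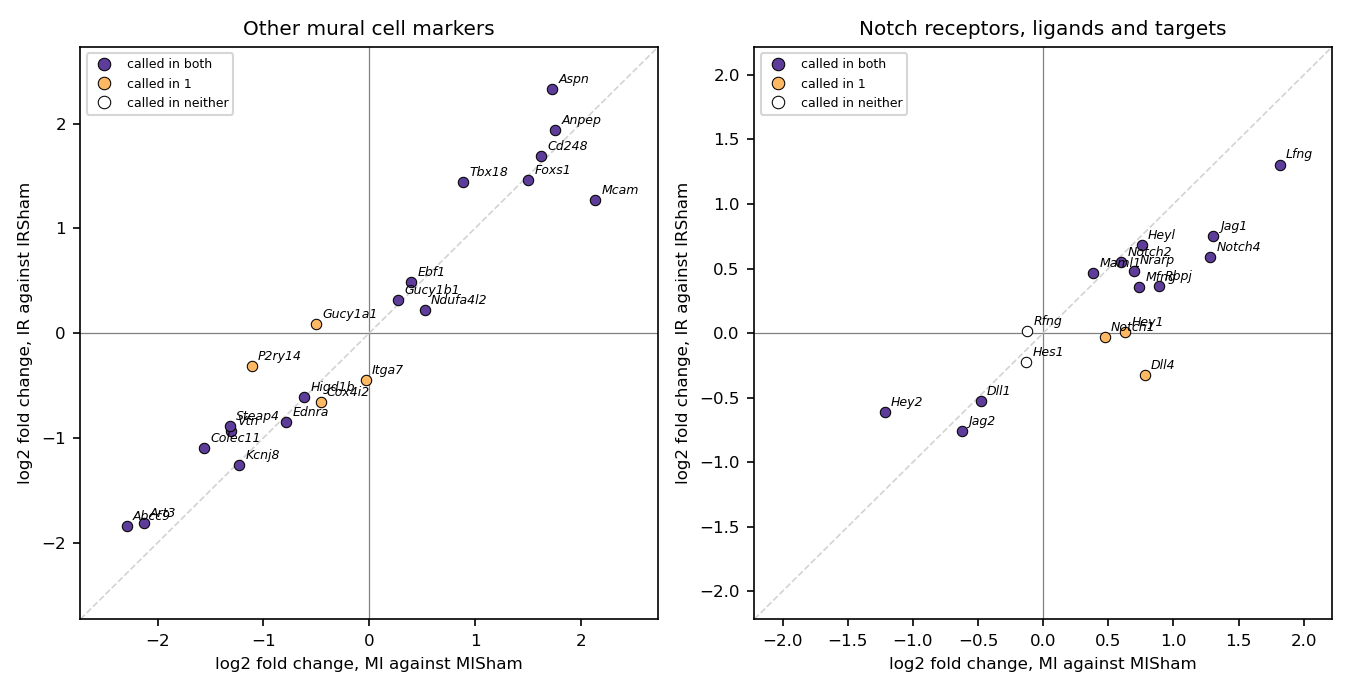
Log2 fold change in MI against MISham (x axis) and in IR against IRSham (y axis) for 21 of the 22 other mural cell markers (left) and 17 Notch genes (right). Purple dots were called in both comparisons, orange in 1 and white in neither, and the dashed line marks equal responses. Mcam, Anpep, Aspn and Cd248 lie at the upper right and Abcc9, Art3 and Colec11 at the lower left.

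Rgs5 was compared with 16 other RGS genes, 15 of them tested. After MI 8 rose and 3 fell, and after IR 7 rose and 2 fell. On gene-summed TPM, with 12 tested, 10 rose and 1 fell after MI and 11 rose and 1 fell after IR. Rgs1, a lymphocyte and myeloid gene, rose by 4.09 ± 0.46 after MI from a mean of 0.449 CPM (adjusted p = 5.88e-07, edgeR). Rgs16 rose by 2.79 ± 0.34 (2.21e-06). Rgs4, a near relative of Rgs5, fell by 0.50 ± 0.12 after MI (adjusted p = 0.00124, edgeR) and was at -0.02 ± 0.12 after IR (0.902), and Rgs2 was at -0.10 ± 0.15 and 0.28 ± 0.15 (0.589 and 0.117). Rgs6, present in cardiomyocytes, fell by 1.87 ± 0.14 after MI (6.96e-09) and Rgs7 by 2.64 ± 0.46 from a mean of 1.76 CPM (7.02e-05).

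Markers of other cells that use PDGF moved as well. Of 11 smooth muscle markers 7 rose and 3 fell after MI, with Cnn1, a contractile protein, at 3.37 ± 0.44 (adjusted p = 6.89e-06, edgeR), Actg2 at 2.64 ± 0.36, Smtn at -1.51 ± 0.14 and Synpo2 at -0.81 ± 0.09, and 4 rose and 3 fell after IR. On gene-summed TPM, with 10 tested, 8 rose and 2 fell after MI and 5 rose and 1 fell after IR. Of 14 fibroblast markers 7 rose and 6 fell after MI and 8 rose and 3 fell after IR. On gene-summed TPM these were 8 and 2 after MI and 11 and 2 after IR. The summed level of the fibroblast markers was 12903 to 15651 CPM in MI and 16200 to 18324 in IR against 3357 to 6626 in MISham and 5268 to 6261 in IRSham. Such a sum weighs the most abundant genes, and this list moved both ways. Postn had means of 1374 CPM in MI and 121 in MISham, and Gsn of 310 and 1577. Of 12 macrophage markers 12 rose after MI and 11 after IR, with sums of 1953 to 2726 CPM in MI and 2197 to 3649 in IR against 486 to 1049 and 835 to 1187 in the shams. Of 12 endothelial markers 5 rose and 3 fell after MI and 1 rose and 5 fell after IR. This balance turned with the scaling, to 9 and 2 after MI and 7 and 2 after IR by total counts alone, and to 10 and 0 after MI and 8 and 1 after IR on gene-summed TPM. The endothelial markers had sums of 2049 to 2134, 1840 to 2044, 1446 to 2008 and 1786 to 2031 CPM in MI, MISham, IR and IRSham. Pdgfrb is also made by fibroblasts, and the part of these cells in its rise was not tested.

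Over the 16 libraries, the pattern of Pdgfrb was most like that of Dpp3, Poldip3 and Ifnar1 (Pearson r of log2 CPM of 0.99 each), and among the 9 genes most like that of Cspg4 (0.95). Rgs5 was most like Mill2, Slc2a8 and Colec11 (0.98 each), the last of which is on the mural list, and Pdgfrl was most like Mfap4, Gxylt2 and Slamf7 (0.98, 0.98 and 0.97). Notch3 was nearest to Cd300a, Gla and Hk3 (0.98, 0.98 and 0.97) and Cspg4 to 2200002D01Rik, Rpl11 and Cttn (0.98 each). Among the ligands, Pdgfc was nearest to Tbc1d14, Ust and Copz1 (0.97, 0.96 and 0.96), Pdgfb to Fhod1, Cdk17 and Chd1 (0.94 each), Pdgfa to Cdk2ap2, Fcrlb and Magoh (0.92, 0.87 and 0.87) and Pdgfd to Yars2, Fabp4 and Siah1a (0.88, 0.88 and 0.87). The libraries fall into injured and sham groups, which these correlations share, so they are descriptions with no test.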

How the data were processed

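Members and lists were chosen with earlier results of these data known. The authors deposited a table of raw gene counts and a table of transcript TPM, abundances scaled to a fixed sum, in which the authors left 1 column of estimated counts that names no sample. Named in the submitters' processing notes are kallisto 0.50.1, featureCounts 2.0.1, HISAT2 2.2.1, SAMtools 1.7 and GRCm39, with no role for any of them. Neither strandedness nor an annotation release is given there. The 4 long-read libraries were not analysed here, and 2 columns that name no sample (estimated counts and effective lengths) were not used. Symbols came from the identifiers, and transcript names from GENCODE M21.

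Counts were fitted in R 4.3.3 with edgeR 4.0.16 (TMM, filterByExpr with a minimum count of 10 and total of 15, robust quasi-likelihood, 1 mean per group over 16 libraries). SEs were derived from the fold change and its statistic. TPM was tested with limma 3.58.1 with a trend, at a mean TPM of at least 1 and a pseudocount of 1, and shares where a gene's mean summed TPM was at least 5 and at least 2 transcripts held 5% or more. Folds on log2(TPM + 1) understate the change of low transcripts. A gene's TPM sums annotated transcripts only. The fits were tested on simulated data in which few genes or transcripts changed, so that check does not cover a broad shift such as the one here.

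Genes given with values from a list were taken from its 2 called genes with the largest rise and the 2 with the largest fall after MI. A fixed set of ligand-processing, Notch, channel and RGS genes was added. Not every gene so chosen is reported. Alternatives were DESeq2 1.42.0, other scalings, no filter, only the compared groups, a replicate block, thinning to 24.27 M counts, gene-summed TPM with limma, and each library left out. Pairs of libraries in MISham and IR were added after seeing the data. No 2 libraries held identical counts. Of the mural list, 1 gene enters the counts and sums and is not reported by itself here.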

Additional observations from a re-analysis of the deposited data

Results flagged for a closer look

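In 36 groups of 4 libraries, 1 for each of the 9 genes in each group, a library far from the other 3 was looked for, which chance flags in about 1 in 20 groups. Of these, 2 had one. Pdgfa in MISham was at 25.1 CPM in library 2, where the other libraries held 33.4 to 34.6. Pdgfd in IR was at 16.1 CPM in library 3, where the others held 10.8 to 11.5.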

How the results depend on the processing

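Except for Pdgfd in both comparisons, Pdgfa after IR and Rgs5 after IR on gene-summed TPM (-0.11, adjusted p = 0.388), the direction and call of the 9 genes in MI against MISham and IR against IRSham held under 28 alternatives each. Pdgfd reversed on gene-summed TPM, to 0.29 after MI and 0.11 after IR. Its call also ended after thinning in MI (-0.37, adjusted p = 0.0548), with only the compared groups in IR (-0.42, 0.0557) and with MISham or IR libraries 1 and 3 alone (-0.22, 0.346 and -0.25, 0.301). Members called ran from 8 to 9 after MI and 7 to 8 after IR, member transcripts from 12 to 13 and 8 to 10, when a library was left out. For the difference of the responses, members called went from 0 to 1 with MISham libraries 2 and 4 alone and to 2 with IR libraries 1 and 3 alone, and between the shams to 2 with MISham libraries 2 and 4 alone. Genes called for that difference, 38, moved to 117 with no filter, 23 after thinning, 450 with DESeq2, 18 on gene-summed TPM, 1096 and 2 with MISham libraries 2 and 4 or 1 and 3 alone, 129 and 758 with IR libraries 2 and 4 or 1 and 3 alone, and 3 to 282 with a library left out (282 without IR library 3). Between the shams, 632 genes moved to 1674 with MISham libraries 2 and 4 alone and to 20 on gene-summed TPM. The cause was not tested. The median of all genes was 0.39 after MI and 0.32 after IR scaled by total counts alone, and 0.70 and 0.57 on gene-summed TPM.

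Over all 6 pairs of groups, the deviations of same-numbered libraries from their group means correlated at -0.15 to 0.23, with a value below 0 in each pair of groups, so the numbers were not taken as a pairing. With a replicate block, members called were 9 after MI, 7 after IR, 0 for the difference and 0 between the shams, genes called were 12594, 11083, 10 and 553, and member transcripts called were 12, 8, 0 and 0. The member whose call ended with the block was Pdgfd after IR (-0.42, adjusted p = 0.0522).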

Other observations

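Platelets carry PDGF in their granules, and platelet and megakaryocyte markers were measured beside the ligands. Of 8 tested markers 5 rose and 1 fell after MI, and 3 rose and 1 fell after IR (edgeR). On gene-summed TPM, with 5 tested, 4 rose and 0 fell after MI and 3 rose and 1 fell after IR. Their summed level was 253 to 312 CPM in MI, 26.1 to 51.3 in MISham, 154 to 212 in IR and 44.5 to 64.1 in IRSham. Ppbp, a platelet chemokine at a mean of 1.25 CPM in MISham, rose by 4.74 ± 0.65 after MI (adjusted p = 1.87e-05, edgeR) and 1.96 ± 0.58 after IR (0.0101). Itgb3, a platelet integrin chain that other cells also make, rose by 3.01 ± 0.36 (3.37e-06) and 1.64 ± 0.34 (0.00088). Gp1ba, a platelet receptor for von Willebrand factor at a mean of 2.84 CPM in MISham, fell by 0.77 ± 0.27 after MI (adjusted p = 0.0199, edgeR) and 1.42 ± 0.28 after IR (0.000309). Of the 10 markers on the list 1 was at 0 in all libraries.

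Of 7 tested neutrophil markers 6 rose and 0 fell after MI, and 3 rose and 0 fell after IR (edgeR), with sums of 260 to 583 CPM in MI, 35.6 to 119 in MISham, 108 to 245 in IR and 34.8 to 133 in IRSham. Mmp8 rose by 3.90 ± 0.38 after MI from a mean of 0.811 CPM (adjusted p = 1.96e-07, edgeR) and Mmp9 by 3.68 ± 0.63 (0.000149).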
